A study of Mus musculus with 12 samples.

Results

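Expression of 10 genes that position B cells in lymphoid tissue was followed in splenic B cells of lupus-prone mice. The genes were the sphingosine-1-phosphate receptors S1pr1, S1pr2 and S1pr4, the oxysterol receptor Gpr183 (also called EBI2), the chemokine receptors Cxcr4, Cxcr5, Ccr6 and Ccr7, the G protein subunit Gna13 and the signalling inhibitor Rgs13. They were chosen by name, with earlier results of these data known. Counts of members set beside the share of all genes are therefore descriptive. All 10 had an entry among the 43613 named gene items of the series. All 10 also reached 1 FPKM (fragments per kilobase of transcript, scaled to the size of the library) in at least 3 of the 12 libraries and entered the tests. The study held 4 groups of 3 RNA-seq libraries from spleens of 6-month-old females. The Ifnar1KO GC group was sorted as B220+GL7+CD95+ germinal centre (GC) B cells from mice labelled B6.Sle1b.IFNaR1-/-, and the Sle1b GC group as the same cells from mice labelled B6.Sle1b. The Ifnar1KO non-GC and Sle1b non-GC groups were sorted as B220+GL7-CD95- cells from the same genotypes. Sle1b, a genetic interval that predisposes C57BL/6 mice to lupus, was thus present in every group, and no group without it was compared here. Ifnar1 codes for part of the receptor for type I interferons, and the design asks what this receptor does for B cell selection in autoimmune-prone germinal centres. Whether the 3 libraries of each group stem from different mice is not given in the labels, so p-values measure only how far these samples spread, and that spread may be technical.

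B cells move along gradients of lipid and chemokine ligands. Cxcr5 brings them into follicles, Ccr7 and Gpr183 draw them to the border of the T cell zone and to the outer follicle, and S1pr1 guides lymphocytes out of the tissue. Within the germinal centre, Cxcr4 holds cells in the dark zone, while S1pr2 signals through the G protein subunit encoded by Gna13 to inhibit migration. Mice that lack S1pr2 or Gna13 in B cells are known for poorly confined germinal centres.

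The promoters of 3 members are shown: S1pr2 and Rgs13, which were higher in GC cells of batches 1 and 2, and Gpr183, which was lower in GC cells in every pair of libraries. RefSeq gave a promoter for 7 of the 10 members, from 250 bases before to 50 bases after the start of the gene on GRCm38.p6. Letters run 5′ to 3′ on the strand of the gene, and capitals mark a match to a searched motif. The S1pr2 window lies at chr9:20976744-20977043, the Rgs13 window at chr1:144177323-144177622 and the Gpr183 window at chr14:121965144-121965443, all on the minus strand.
S1pr2: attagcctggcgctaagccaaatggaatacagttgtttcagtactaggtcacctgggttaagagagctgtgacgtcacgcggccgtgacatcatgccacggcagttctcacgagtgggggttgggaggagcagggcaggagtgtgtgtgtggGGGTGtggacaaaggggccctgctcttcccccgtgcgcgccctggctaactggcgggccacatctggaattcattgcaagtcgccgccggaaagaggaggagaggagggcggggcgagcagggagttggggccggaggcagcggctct
Rgs13: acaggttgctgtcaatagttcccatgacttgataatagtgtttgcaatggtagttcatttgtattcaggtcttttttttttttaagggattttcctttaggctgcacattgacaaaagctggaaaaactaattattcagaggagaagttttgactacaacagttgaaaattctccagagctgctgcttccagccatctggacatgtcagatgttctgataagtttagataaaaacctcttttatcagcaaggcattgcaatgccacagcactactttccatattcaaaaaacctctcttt
Gpr183: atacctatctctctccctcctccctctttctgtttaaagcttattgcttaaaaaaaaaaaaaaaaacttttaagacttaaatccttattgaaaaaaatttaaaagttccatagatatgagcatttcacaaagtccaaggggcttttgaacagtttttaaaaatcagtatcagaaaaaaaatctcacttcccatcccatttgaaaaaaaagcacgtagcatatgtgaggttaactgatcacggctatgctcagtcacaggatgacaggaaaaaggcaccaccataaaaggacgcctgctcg
The letters searched, on both strands, were CACCC (a box bound by KLF factors such as Klf2, a known regulator of S1pr1), GTAAACA (a FOXO site), GAAA followed by any 2 bases and GAAA (the interferon-stimulated response element) and TTCNNNGAA (a palindrome of the kind bound by STAT factors and Bcl6). The S1pr2 window held 1 match, to CACCC on the opposite strand, and the Rgs13 and Gpr183 windows held none. Of the 32851 mouse promoters of this length, 57.52% held CACCC, 3.65% held GTAAACA, 3.443% held the interferon-stimulated response element and 8.298% held TTCNNNGAA. Among the other members, the S1pr4 and Cxcr4 windows held 1 CACCC each, the Gna13 window held 1 interferon-stimulated response element and 1 CACCC, and the window of the first Ccr6 start held 2 copies of TTCNNNGAA. A match describes letters only and is no sign of binding.

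Each of the 3 batches held 1 library of every group. Levels in FPKM are per transcript length, and levels set side by side across batches come from separately normalised tables. The 4 libraries of batch 3 stood apart: between 34.9% and 58.9% of tested genes were listed at 0 in them, against 12.3% to 26.4% in the other 8. The cytoskeletal transcript Actb had 11.5 FPKM in Ifnar1KO GC cells and 5.78 FPKM in Sle1b GC cells of batch 3, and 109.8 FPKM in Ifnar1KO non-GC cells and 120.4 FPKM in Sle1b non-GC cells, whereas the libraries of batches 1 and 2 had 286.5 to 740.1 FPKM. The GC transcription factor Bcl6 had 0.261 FPKM in Ifnar1KO GC cells and 0.966 FPKM in Sle1b GC cells of batch 3, while batches 1 and 2 had 76.7 to 154 FPKM in GC cells, so the label of GC cells in batch 3 was not met by this marker. Results are therefore given with all batches and with batches 1 and 2 alone. In batches 1 and 2, 6 of 7 GC B cell markers were higher and 3 of 5 resting B cell markers were lower in GC cells (limma adjusted p under 0.05). The Ifnar1 transcript went against the genotype label in those batches, with 14.1 and 15.4 FPKM in Ifnar1KO GC cells and 8.12 and 9.89 FPKM in Sle1b GC cells. In non-GC cells Ifnar1 had 51.2 and 69.1 FPKM with the Ifnar1KO label and 14.6 and 36.1 FPKM with the Sle1b label. In batch 3 it went with the label, at 0 FPKM in Ifnar1KO GC cells and 6.80 FPKM in Sle1b GC cells, and at 2.58 FPKM in Ifnar1KO non-GC cells and 3.45 FPKM in Sle1b non-GC cells. Where the allele is deleted is not given in the sources used here, so Ifnar1KO stands for the label throughout.

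In batches 1 and 2, GC cells had more S1pr2 and Rgs13 than non-GC cells and less S1pr1 and Cxcr5. S1pr2 was 22.5-fold and Rgs13 12.2-fold higher on the scale of FPKM + 1, while S1pr1 was 2.81-fold and Cxcr5 2.90-fold lower. Gpr183, Ccr7, S1pr4 and Ccr6 lay lower in all 4 pairs of GC and non-GC libraries of 1 genotype and batch, without passing the test. Cxcr4 and Gna13 differed in direction between pairs. These 4 calls came from batches 1 and 2, where 4 of 10 members passed (limma on log2(FPKM + 1), adjusted p under 0.05 over all genes tested), against a background of 2.85% of 13769 genes. By direction, 2 members passed as higher against 1.25% of genes, and 2 as lower against 1.61% of genes. The members were chosen with earlier results of these data known, so these counts describe the list and are no independent test. With all 3 batches, 0 of 10 members passed, where 0.0274% of 14608 genes did, and 2557 genes had an unadjusted p under 0.05. The median of all genes was -0.25 in this contrast with 3 batches and -0.29 in batches 1 and 2, and the median of the 10 members was -1.08 and -1.44. In bulk samples, fewer cells of a type and less RNA per cell cannot be told apart.

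**Figure D1:**
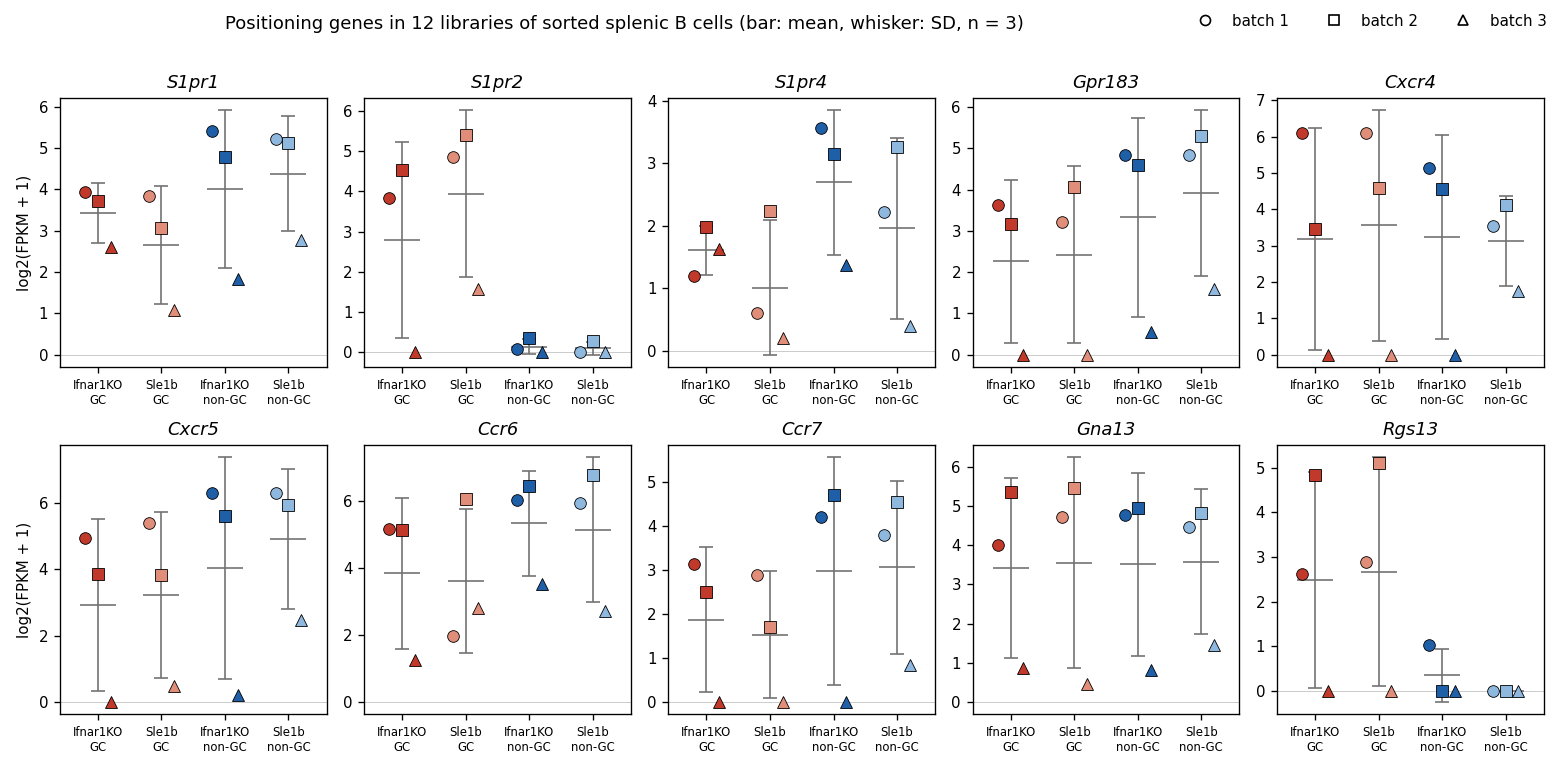
Each panel plots log2(FPKM + 1) of 1 gene (y axis) in the 12 libraries by group (x axis). Circles, squares and triangles are batches 1, 2 and 3, and the bar and whisker give the mean and SD of the 3 libraries of a group; S1pr2 stays at or under 0.264 FPKM in all 6 non-GC libraries, and most triangles of batch 3 lie below the other symbols.

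S1pr2, at chr9:20965952-20976793 on the minus strand, encodes the receptor that confines GC B cells. It had 13.2, 22.2 and 0 FPKM in the Ifnar1KO GC libraries of batches 1, 2 and 3, and 28.0, 41.5 and 1.96 FPKM in the Sle1b GC libraries. In non-GC libraries it had 0.0451, 0.264 and 0 FPKM with the Ifnar1KO label and 0, 0.206 and 0 FPKM with the Sle1b label. The 5 GC libraries with a value above 0 exceeded all 6 non-GC libraries, and the Ifnar1KO GC library of batch 3 was listed at 0. Over 3 batches the GC minus non-GC difference was 3.25 on the log2(FPKM + 1) scale (SE 0.61, limma adjusted p = 0.0737). In batches 1 and 2 S1pr2 rose by 4.49 (SE 0.42, limma adjusted p = 0.0083). Over 27 alternatives to the fit with 3 batches, which include this one, the limma adjusted p ran from 0.0049 to 0.960. The variants with batches 1 and 2 alone gave limma adjusted p of 0.0049, 0.00621 and 0.011. Within batches 1 and 2, the difference was 3.98 in Ifnar1KO cells (SE 0.59, limma adjusted p = 0.0571) and 4.999 in Sle1b cells (SE 0.59, limma adjusted p = 0.0474). It passed in the Sle1b comparison, and 0.0581% of all genes passed in each of these comparisons. With all 3 batches no member passed in either genotype, where 0.00685% of genes did in Ifnar1KO cells and 0% in Sle1b cells. The test of the difference between these values stands with the genotypes below.

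Rgs13, at chr1:144138654-144177372 on the minus strand, encodes a regulator of G protein signalling that dampens chemokine receptor output in GC B cells. It had 5.11, 27.5 and 0 FPKM in Ifnar1KO GC libraries, and 6.46, 33.7 and 0 FPKM in Sle1b GC libraries. In Ifnar1KO non-GC libraries it had 1.05, 0 and 0 FPKM, and in all 3 Sle1b non-GC libraries it was listed at 0. The 4 GC libraries of batches 1 and 2 exceeded every non-GC library, and no library of batch 3 held a value above 0. A listed 0 in batch 3 allows up to 3 reads on this transcript, or 0.345 to 0.637 FPKM, for counting error only. Rgs13 rose by 3.61 in batches 1 and 2 (SE 0.66, limma adjusted p = 0.0359), and the difference over 3 batches was 2.40 (SE 0.68, limma adjusted p = 0.1285). Over the 27 alternatives its adjusted p ran from 0.0269 to 0.999. In the authors' deposited table, 2 of the 5 direct GC against non-GC comparisons gave Rgs13 a q-value under 0.05, the lowest being 0.00556, and the other 9 members had none. Each of the 5 comparisons set 1 library against 1 other. Both Rgs13 calls were in batch 2, with the non-GC library listed at 0. In the Sle1b pair of batch 2, S1pr2 had 0.209 FPKM in non-GC and 41.95 FPKM in GC cells, with an authors' q-value of 0.348. These q-values therefore do not rank the members.

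Among the sphingosine-1-phosphate receptors, S1pr1 ran opposite to S1pr2. S1pr1, at chr3:115710433-115715072 on the minus strand, had 14.4, 12.2 and 5.09 FPKM in Ifnar1KO GC libraries and 13.3, 7.33 and 1.10 FPKM in Sle1b GC libraries. In non-GC libraries it had 41.5, 26.4 and 2.56 FPKM with the Ifnar1KO label and 36.2, 33.9 and 5.80 FPKM with the Sle1b label. GC cells were lower in 5 of 6 pairs, and in batch 3 the Ifnar1KO pair ran the other way. S1pr1 fell by 1.49 in batches 1 and 2 (SE 0.31, limma adjusted p = 0.0483). This call was lost when the medians of the libraries of a batch were set equal, an alternative chosen after seeing the data (-1.28, limma adjusted p = 0.0711), and with 3 batches the difference was -1.15 (SE 0.38, limma adjusted p = 0.1708).

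S1pr4, at chr10:81496896-81500838 on the minus strand, encodes a further lymphocyte receptor for the same lipid. It had 1.29, 2.96 and 2.11 FPKM in Ifnar1KO GC libraries and 0.522, 3.69 and 0.152 FPKM in Sle1b GC libraries. Its non-GC levels were 10.8, 7.83 and 1.61 FPKM with the Ifnar1KO label and 3.65, 8.55 and 0.319 FPKM with the Sle1b label. The 4 GC libraries of batches 1 and 2 each lay below their non-GC partner, although the Sle1b GC level of batch 2 was slightly above the Sle1b non-GC level of batch 1. The difference was -1.54 in batches 1 and 2 (SE 0.50, limma adjusted p = 0.1252) and -1.02 over 3 batches (SE 0.46, limma adjusted p = 0.277). S1pr4 was at most 10.8 FPKM, below the highest level of S1pr1 (41.5 FPKM) and of S1pr2 (41.5 FPKM). Plasmacytoid dendritic cells, which also carry B220, express S1pr4. The summed level of 4 of their markers ranged from 0.0765 to 2.94 FPKM in Ifnar1KO GC libraries and 1.61 to 2.31 FPKM in Sle1b GC libraries, against 0.213 to 15.8 FPKM in Ifnar1KO non-GC libraries and 9.84 to 14.0 FPKM in Sle1b non-GC libraries. Of these 4 markers, 1 passed as lower in GC cells of batches 1 and 2. Their part in the S1pr4 values was not tested.

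The balance of S1pr2 and S1pr1 within a library separated the cell types of batches 1 and 2. The log2 ratio of S1pr2 over S1pr1 (each as FPKM + 1) was -0.11, 0.81 and -2.61 in Ifnar1KO GC libraries and 1.02, 2.35 and 0.49 in Sle1b GC libraries. In non-GC libraries it was -5.35, -4.44 and -1.83 with the Ifnar1KO label and -5.22, -4.86 and -2.76 with the Sle1b label. A ratio within a library is nearly free of that library's scaling only where both genes lie well above the added 1. S1pr2 was at most 0.264 FPKM in non-GC libraries, so their ratios mostly restate S1pr1 and depend on scaling. With S1pr2 listed at 0, as in the Ifnar1KO GC library of batch 3, the ratio is S1pr1 alone with reversed sign. GC ratios exceeded every non-GC ratio in 5 of 6 GC libraries, and the Ifnar1KO GC library of batch 3 lay among the non-GC values of its batch.

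**Figure D2:**
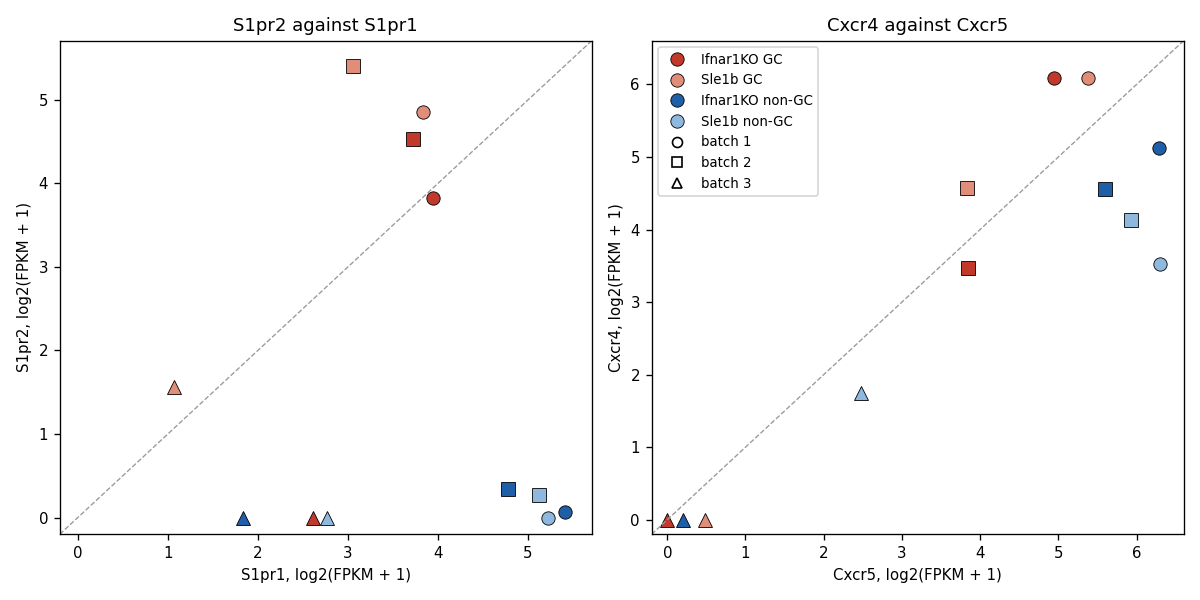
The left plot sets S1pr2 (y axis) against S1pr1 (x axis) and the right plot Cxcr4 (y axis) against Cxcr5 (x axis), in log2(FPKM + 1), with 1 symbol per library and a dashed line of equal levels. Of the 4 GC libraries of batches 1 and 2, 3 lie above the line for S1pr2 and the Ifnar1KO library of batch 1 lies just below it (log2 ratio -0.11), while non-GC libraries lie far below it; for Cxcr4 3 of these GC libraries lie above the line.

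Gpr183, at chr14:121876725-122021034 in the authors' table, encodes the oxysterol receptor that B cells lose on entering the germinal centre. It had 11.3, 7.92 and 0 FPKM in Ifnar1KO GC libraries and 8.25, 15.7 and 0 FPKM in Sle1b GC libraries. Non-GC levels were 27.6, 23.2 and 0.469 FPKM with the Ifnar1KO label and 27.7, 38.4 and 2.03 FPKM with the Sle1b label. GC cells were lower in 6 of 6 pairs, by 0.55 to 1.63 on the log2 scale, and in batches 1 and 2 the highest GC level (15.7 FPKM) lay under the lowest non-GC level (23.2 FPKM). Gpr183 and Cxcr5 were the 2 of 10 members lower in all 6 pairs, against 5.82% of all genes tested. The difference did not pass the test, at -1.28 over 3 batches (SE 0.36, limma adjusted p = 0.1285) and -1.38 in batches 1 and 2 (SE 0.35, limma adjusted p = 0.0770). The authors' locus of Gpr183 also spans Ubac2 and Gpr18, and no label describes the libraries as stranded, so reads of overlapping genes cannot be told apart. Ubac2 was lower in GC cells in batch 1, at 19.0 FPKM in Ifnar1KO GC cells and 28.8 FPKM in Sle1b GC cells, against 49.3 FPKM in Ifnar1KO non-GC cells and 45.5 FPKM in Sle1b non-GC cells. In batch 2 it had 49.4 FPKM in Ifnar1KO GC cells and 42.2 FPKM in Sle1b GC cells, against 76.6 FPKM in Ifnar1KO non-GC cells and 48.0 FPKM in Sle1b non-GC cells. The part of Ubac2 reads in the Gpr183 values was not tested.

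Cxcr5, at chr9:44511788-44556391 on the minus strand, encodes the receptor for the follicular chemokine CXCL13. It had 29.8, 13.3 and 0 FPKM in Ifnar1KO GC libraries and 40.6, 13.2 and 0.403 FPKM in Sle1b GC libraries. Non-GC levels were 77.2, 47.6 and 0.152 FPKM with the Ifnar1KO label and 78.0, 60.2 and 4.57 FPKM with the Sle1b label. All 4 GC libraries of batches 1 and 2 lay below all 4 non-GC libraries of these batches. Cxcr5 fell by 1.53 in batches 1 and 2 (SE 0.31, limma adjusted p = 0.0437). This call too was lost with medians set equal (-1.32, limma adjusted p = 0.0726), and over 3 batches the difference was -1.39 (SE 0.40, limma adjusted p = 0.1309).

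Cxcr4, at chr1:128588199-128592293 on the minus strand, encodes the CXCL12 receptor that marks dark zone cells. It had 67.2, 10.04 and 0 FPKM in Ifnar1KO GC libraries and 67.4, 22.9 and 0 FPKM in Sle1b GC libraries. Non-GC levels were 34.0, 22.7 and 0 FPKM with the Ifnar1KO label and 10.5, 16.5 and 2.34 FPKM with the Sle1b label. GC cells were higher in 3 of 4 pairs of batches 1 and 2, and the Ifnar1KO pair of batch 2 ran the other way. The difference was 0.72 in batches 1 and 2 (SE 0.50, limma adjusted p = 0.415) and 0.19 over 3 batches (SE 0.54, limma adjusted p = 0.8854), and its sign changed among the alternatives, between -0.60 and 0.93. Set against Cxcr5 in the same library, the log2 ratio of Cxcr4 over Cxcr5 was 1.15 and -0.37 in Ifnar1KO GC libraries and 0.72 and 0.75 in Sle1b GC libraries of batches 1 and 2. The ratio was -1.16 and -1.04 in Ifnar1KO non-GC libraries and -2.78 and -1.81 in Sle1b non-GC libraries. Every GC ratio of these batches exceeded every non-GC ratio, and in batch 3 all 4 ratios lay between -0.74 and 0.

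Ccr7, at chr11:99144196-99155077 on the minus strand, encodes the receptor for the T zone chemokines CCL19 and CCL21. It had 7.70, 4.64 and 0 FPKM in Ifnar1KO GC libraries and 6.39, 2.27 and 0 FPKM in Sle1b GC libraries. Non-GC levels were 17.4, 25.1 and 0 FPKM with the Ifnar1KO label and 12.8, 22.3 and 0.779 FPKM with the Sle1b label. GC levels of batches 1 and 2 were all below the non-GC levels of these batches. The difference was -1.76 in batches 1 and 2 (SE 0.44, limma adjusted p = 0.0736) and -1.31 over 3 batches (SE 0.44, limma adjusted p = 0.1743). T cells also express Ccr7: the summed level of 8 T cell markers ranged from 12.7 to 27.4 FPKM in Ifnar1KO GC libraries, 21.7 to 73.7 FPKM in Sle1b GC libraries, 10.8 to 22.03 FPKM in Ifnar1KO non-GC libraries and 7.69 to 24.6 FPKM in Sle1b non-GC libraries. Of these markers Cd8a was listed at 0 in 10 and Cd3g in 9 of 12 libraries, and 0 of the 5 tested in batches 1 and 2 passed the test. Their part in the Ccr7 values was not tested.

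Ccr6, at chr17:8236043-8257127 on the plus strand, encodes the CCL20 receptor carried by naive and memory B cells. It had 34.3, 33.7 and 1.37 FPKM in Ifnar1KO GC libraries and 2.93, 65.0 and 5.98 FPKM in Sle1b GC libraries. Non-GC levels were 63.7, 84.9 and 10.5 FPKM with the Ifnar1KO label and 60.4, 108.2 and 5.496 FPKM with the Sle1b label. GC cells were lower in 5 of 6 pairs, but the size ran from -3.97 in the Sle1b pair of batch 1 to 0.10 in the Sle1b pair of batch 3. The Sle1b GC levels of 2.93 FPKM in batch 1 and 65.0 FPKM in batch 2 were the widest split between these batches within a group among the 10 members. The difference was -1.72 in batches 1 and 2 (SE 0.63, limma adjusted p = 0.1602) and -1.51 over 3 batches (SE 0.57, limma adjusted p = 0.2091).

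Gna13, at chr11:109346839-109401369 in the authors' table, encodes the alpha subunit through which S1pr2 inhibits migration. It had 15.1, 40.1 and 0.832 FPKM in Ifnar1KO GC libraries and 25.2, 43.1 and 0.384 FPKM in Sle1b GC libraries. Non-GC levels were 26.2, 30.0 and 0.758 FPKM with the Ifnar1KO label and 21.2, 27.1 and 1.74 FPKM with the Sle1b label. The cell types overlapped in every batch except batch 2, where both GC libraries exceeded both non-GC libraries. The difference was 0.13 in batches 1 and 2 (SE 0.32, limma adjusted p = 0.8408) and -0.06 over 3 batches (SE 0.37, limma adjusted p = 0.9453), and the sign changed among the alternatives. The authors' locus also holds 1700096J18Rik and Gm11696, whose reads may overlap those of Gna13.

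**Figure D3:**
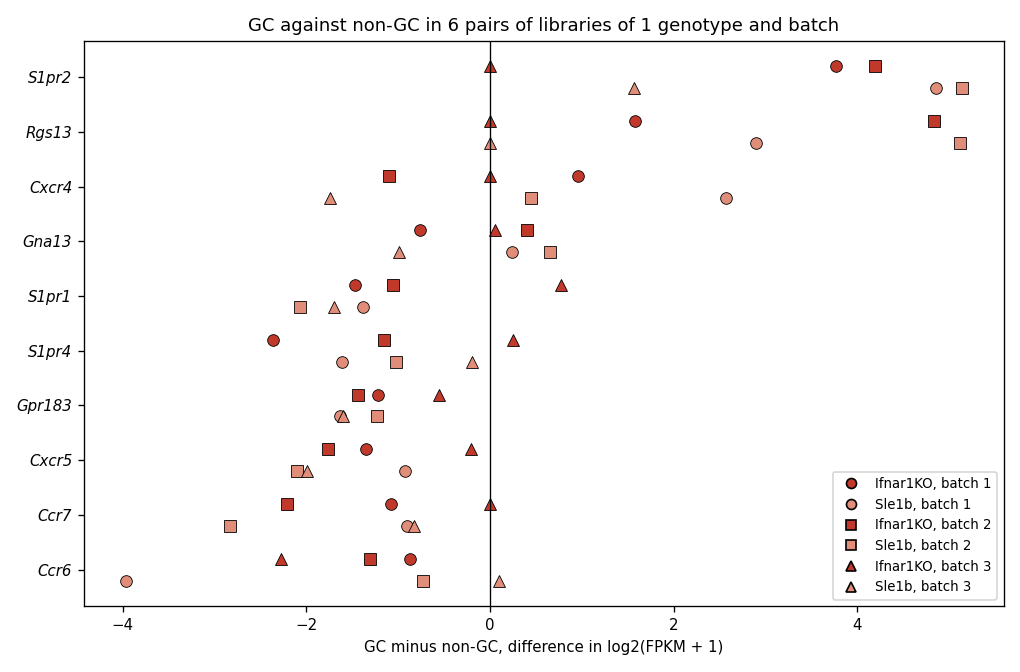
The GC minus non-GC difference in log2(FPKM + 1) (x axis) is plotted for each member (y axis) in the 6 pairs of libraries of 1 genotype and batch. S1pr2 and Rgs13 reach 1.57 to 5.14 in the pairs of batches 1 and 2 (circles and squares), Gpr183 and Cxcr5 lie left of 0 in all 6 pairs, and Cxcr4 and Gna13 fall on both sides.

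By size, 2 members were higher by at least 1 on the log2 scale in all 4 pairs of batches 1 and 2 (S1pr2 and Rgs13), against 1.68% of genes. Likewise 3 members were lower by at least 1 in all 4 pairs (S1pr1, S1pr4 and Gpr183), against 2.59% of genes. Without a limit on size, 6 members were lower in all 4 pairs against 19.5% of genes, and 2 were higher against 7.65%.

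The comparison of genotypes asks whether the Ifnar1KO label goes with other levels of these genes. None of the 10 members passed the test in GC cells, in non-GC cells or in the interaction of genotype and cell type, with all batches or with batches 1 and 2. The background was 0% in each of these comparisons, since no gene of the series passed either. At an unadjusted p under 0.05 there were 959 genes in GC cells, 243 in non-GC cells and 547 in the interaction, with all batches.

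In GC cells, S1pr2 was lower with the Ifnar1KO label in 3 of 3 batches, by 1.03, 0.87 and 1.56 on the log2(FPKM + 1) scale, as its levels above show. It was the 1 member lower in every batch, where 12.7% of genes were. That count is near the share of all genes and is no result about the members. In batch 3 the Ifnar1KO GC library was listed at 0 for S1pr2. Over 3 batches the median of all genes in this contrast was -0.25, and 36.04% of genes lay above 0. The fitted difference of S1pr2 was -1.16 (SE 0.86, limma adjusted p = 0.8126) and -0.95 in batches 1 and 2 (SE 0.59, limma adjusted p = 0.6628), so it did not exceed the spread between libraries. Other GC genes leaned the same way: the summed level of the 7 GC markers was 286.8, 753.7 and 18.7 FPKM in Ifnar1KO GC libraries, against 489.8, 930.1 and 18.8 FPKM in Sle1b GC libraries. The part of the GC markers in the S1pr2 values was not tested. S1pr1 was the 1 member higher with the Ifnar1KO label in GC cells of every batch, by 0.11, 0.66 and 1.54, where 3.05% of genes were. Its fitted difference was 0.77 (SE 0.54, limma adjusted p = 0.8006) and 0.39 in batches 1 and 2 (SE 0.44, limma adjusted p = 0.8115). The S1pr2 over S1pr1 ratios given above were thus lower in the Ifnar1KO GC library than in the Sle1b GC library of each batch.

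The interaction compares how far GC cells differ from non-GC cells in each genotype. For S1pr2 it was -1.20 (SE 1.21, limma adjusted p = 0.9917), so the larger difference in Sle1b cells was not separated from that in Ifnar1KO cells. For S1pr1 it was 1.13 (SE 0.77, limma adjusted p = 0.9917), and for the other 8 members it lay between -0.54 and 0.57. In batches 1 and 2 it was -1.02 for S1pr2 (SE 0.84, limma adjusted p = 0.9281) and 0.47 for S1pr1 (SE 0.62, limma adjusted p = 0.9665). There it was farthest from 0 for Cxcr4, at -1.58 (SE 1.01, limma adjusted p = 0.9065), followed by Ccr6, at 1.25 (SE 1.25, limma adjusted p = 0.9473).

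Gpr183 and Cxcr5 in non-GC cells were lower with the Ifnar1KO label in 3 of 3 batches, where 6.43% of genes were. In batch 1 both differences were near 0 (-0.0047 for Gpr183 and -0.0162 for Cxcr5 on the log2 scale), and they were widest in batch 3, at -1.04 and -2.27. The fitted differences were -0.58 for Gpr183 (SE 0.51, limma adjusted p = 1.0) and -0.87 for Cxcr5 (SE 0.56, limma adjusted p = 1.0). With batches 1 and 2 alone they were -0.35 and -0.17. Ccr6 changed direction between batches in GC cells, at 3.17, -0.93 and -1.56, and Cxcr4 did so in non-GC cells, at 1.60, 0.44 and -1.74.

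**Figure D4:**
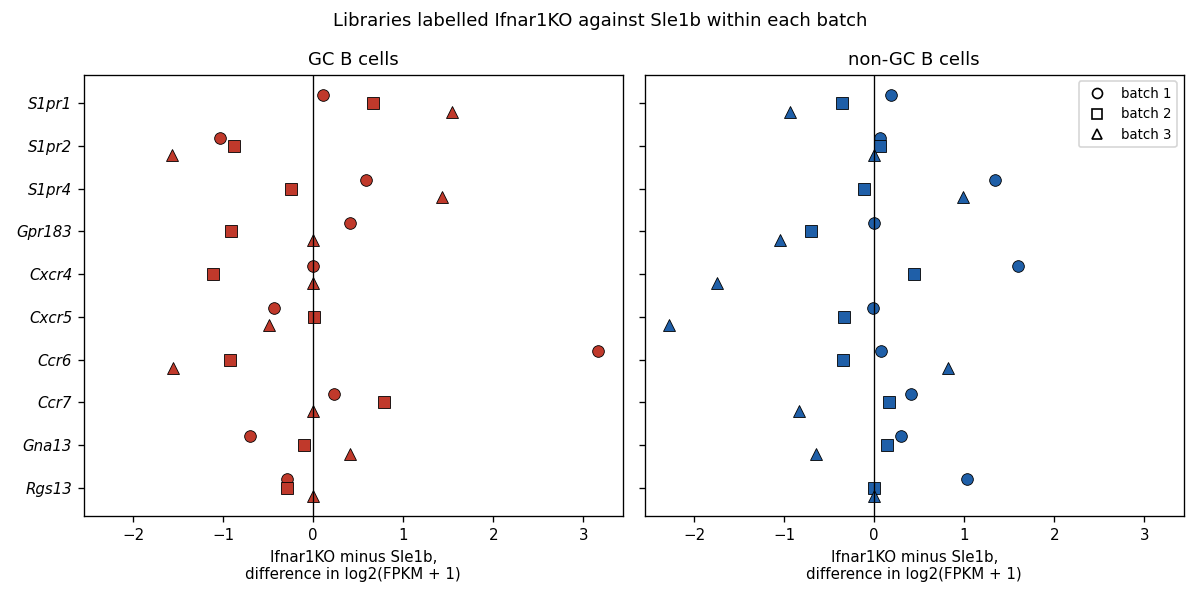
The difference of the libraries labelled Ifnar1KO minus Sle1b in log2(FPKM + 1) (x axis) is plotted per batch for each member (y axis), in GC cells on the left and non-GC cells on the right. S1pr2 lies left of 0 in all 3 batches of GC cells and S1pr1 right of it, while Ccr6 spreads from -1.56 to 3.17.

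Beyond the members, 76 genes of 7 lists around these receptors were examined, of which 66 were tested in batches 1 and 2, the source of the list values below unless 3 batches are named. Of these, 2 passed as lower and 0 as higher in GC cells, and with all batches 0 of 65 passed. This count is near the background of all genes given above, 2.85% in batches 1 and 2, and is no result about the lists. The passing genes were the receptors Gpr174 (for lysophosphatidylserine) and Cnr2 (a cannabinoid receptor of B cells). Gpr174 fell by 2.44 (SE 0.44, limma adjusted p = 0.0342; -1.62 over 3 batches), with 2.83 FPKM in Ifnar1KO GC cells and 4.01 FPKM in Sle1b GC cells, against 21.4 FPKM in Ifnar1KO non-GC cells and 22.1 FPKM in Sle1b non-GC cells. Cnr2 fell by 1.71 (SE 0.34, limma adjusted p = 0.0427) and was lower in 6 of 6 pairs.

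The sphingosine-1-phosphate list held 0 passing genes of 8 tested, with a median of -0.76. Klf2, the transcription factor that drives S1pr1, was at -1.10 (SE 0.41, limma adjusted p = 0.164) and Cd69, which pulls S1pr1 from the cell surface, at -0.76 (SE 0.37, limma adjusted p = 0.264). Both were lower in GC cells in 6 of 6 pairs. The phosphatases Sgpp2 and Sgpp1, which degrade the lipid inside cells, were at -1.137 and -0.9995. In the oxysterol list, Hsd3b7, which breaks down the Gpr183 ligand, shares its entry in the authors' tables with Setd1a, so the values of these genes cannot be told apart. The joint entry was at 1.49 (SE 0.34, limma adjusted p = 0.0612), and at 0.92 over 3 batches. Its mean level over batches 1 and 2 was 69.0 FPKM in Ifnar1KO GC cells and 30.0 FPKM in Sle1b GC cells, against 13.6 FPKM in Ifnar1KO non-GC cells and 18.6 FPKM in Sle1b non-GC cells.

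The branch downstream of Gna13 held 0 passing genes of 9. The GTPase gene Rhoa was at -1.64 (SE 0.40, limma adjusted p = 0.0672) and its inhibitor Arhgdib at -1.003 (SE 0.25, limma adjusted p = 0.0723; -1.69 over 3 batches), both lower in 6 of 6 pairs, while the kinases Rock1 and Rock2 were at -0.63 and -0.21 (-0.94 and -0.98 over 3 batches). Among 16 tested regulators of receptor signalling and desensitization, 0 passed. Rgs1, which limits chemokine responses in B cells, was at 1.78 (SE 0.53, limma adjusted p = 0.107; 1.08 over 3 batches), and Rgs3 at 0.31 (1.45 over 3 batches). The G protein subunits Gnai3 and Gnai2, which transmit chemokine receptor signals, were at -1.31 and -0.22, and the sign of Gnai2 turned to 1.15 over 3 batches, where Gnai3 was at -1.06. The list of other attractant receptors held the 2 lower genes named above among 14 tested, with a median of -0.94, and its lipid receptors Gpr132 and Gpr18 were at -0.89 and -0.78. Of 9 adhesion genes, 0 passed: the integrin chain Itga4 was at -1.29 and Icam1, an integrin ligand, at 2.25 (SE 0.72, limma adjusted p = 0.124; 1.19 over 3 batches), while Icam2 was at 0.05 (-0.82 over 3 batches) and Selplg, a selectin ligand, at -1.31 (-0.76 over 3 batches). Of 8 genes of the migration machinery, 0 passed: Cdc42 was at -1.28 (SE 0.34, limma adjusted p = 0.0851), Rac1 at -0.85 (-1.34 over 3 batches), Rac2 at -0.91 and the Rac activator Dock2 at 0.12 (-0.37 over 3 batches).

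**Figure D5:**
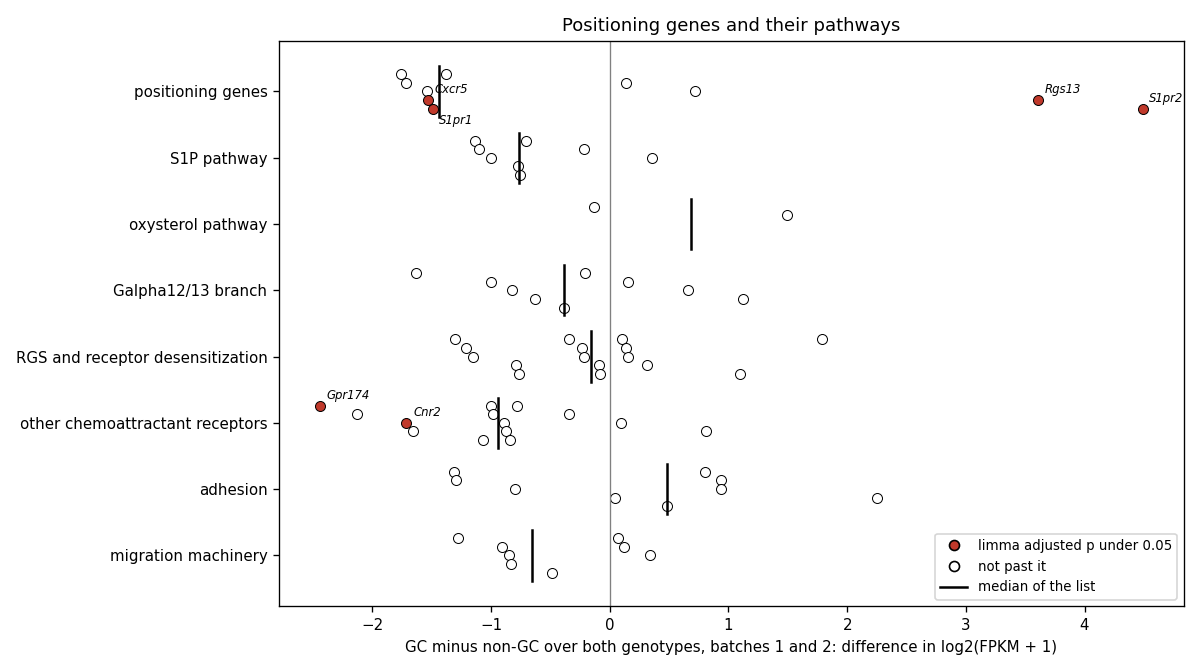
Each point is a gene, placed by its GC minus non-GC difference in log2(FPKM + 1) over both genotypes in batches 1 and 2 (x axis) within its list (y axis), and the bar marks the median of the list. Filled points passed the test: 4 of the 10 positioning genes and 2 of the 66 genes in the lists below them, and S1pr2 and Rgs13 lie farthest to the right.

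Patterns most like those of single members were ranked by Pearson's r of log2(FPKM + 1) after centring on each batch, over 12 libraries that share these batches. The r values describe the libraries, which hold both GC and non-GC cells. Genes that share a difference between these cell types can reach a high r. For S1pr2, 4 of the 5 closest genes were the replication helicase gene Mcm5 (r = 0.976), Helq (0.976), Atp11a (0.975) and Nuggc (0.974). For Gpr183 they were Cd244 (0.972), Akr1b10 (0.962), Gm16464 (0.958), Rps24 (0.956) and the proton channel gene Hvcn1 (0.953). The closest to Ccr6 was RP23-167C5.1 (0.955) and to Cxcr4 Rabep2 (0.934).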

How the data were processed

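RNA was sequenced from 12 sorted B cell libraries made with the SMARTer ultra low input and Nextera XT kits, per the labels' protocols. The submitters' processing notes name TopHat2 2.0.9 and Bowtie2 2.1.0, Cufflinks 2.2.1, Cuffdiff and CASAVA, on GRCm38 (mm10); roles and options are not given in the sources used here. Each of the 17 deposited tables compares 1 library with 1 other of its batch, and holds FPKM values that the authors normalised per table. The tables also hold the authors' p-value and q-value; a direct table for Sle1b cells of batch 1 was not used here, and that pair was linked through the other tables of its batch.

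A library's values in different tables differed by 1 factor (within 0.1% for at least 99.611% of values), so 1 scale per library was solved by least squares within a batch. Loci of 1 symbol were summed, symbols that share a locus entry kept as 1 item, and 9 failed items left out. Values of exactly 0 may be failed estimates, and are written as listed at 0. Low values were whole multiples of 1 read (within 0.1 read), which was worth 0.121 to 0.406 FPKM on 1 kb. With annotated transcript lengths this gives about 860000 reads on named genes for the Sle1b GC library of batch 3 and 2130000 to 7170000 elsewhere; no count test was run. No libraries held identical values (highest r 0.927).

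Genes with at least 1 FPKM in 3 of 12 libraries (2 of 8 for batches 1 and 2) were tested with limma 3.58.1 in R 4.3.3 on log2(FPKM + 1), two-sided, with batch as a block, variance trend and Benjamini-Hochberg adjustment over all genes; a fold on this scale understates the change of low genes. Residual degrees of freedom were 6 with 3 batches and 3 with batches 1 and 2. The replicate number is the batch of the tables, and libraries of a batch deviated together from their group means (lowest r 0.289, 0.401 and 0.524 in batches 1, 2 and 3). The test was also run on simulated data, with noise below the residual spread of these data and large planted differences. That run does not show how the test performs at the spread seen here. A count of pairs uses differences within 1 batch. Named list genes are those past the threshold over 3 batches, or otherwise the 4 of smallest p in a list; items withheld from print are not reported here. The members and lists were chosen with earlier results of these data known. Alternatives covered scaling, joining, pseudocount, filter, block, batches and single libraries.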

Additional observations from a re-analysis of the deposited data

How the results depend on the processing

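Each of the 10 members was recomputed under 27 alternatives in 6 contrasts, which gave 1620 values. Of these, 1473 kept their sign and their side of the threshold, 130 changed sign without a call and 17 became called. With all libraries no member was called, so there was no call to lose. The number of members called in GC against non-GC cells, 0 with all libraries, was 1 with medians set equal within a batch, 1 with the plain mean of FPKM over tables, and 4 with batches 1 and 2 alone. Chosen after seeing the data, batches 1 and 2 gave 2 members with equal medians (S1pr2 and Rgs13), 4 with gene-wise least squares over tables, and 1 without the replicate block (S1pr2). In Sle1b cells, batches 1 and 2 gave 1 member (S1pr2) in their planned, equal-median and gene-wise forms and 0 without the replicate block, and in Ifnar1KO cells the gene-wise form gave 1 (S1pr2). Leaving out 1 library at a time gave 0 to 0 called members in all 6 contrasts. Without the replicate block, over all 3 batches, 0 members were called (S1pr2 adjusted p = 0.960 in limma). The count of all genes called in GC against non-GC cells was 4 with all libraries, 16 with equal medians, 58 with the plain mean and 393 with batches 1 and 2. In this contrast Cxcr4 and Gna13 were the 2 members that changed sign, and S1pr2 ranged from 2.55 to 5.34 and Gpr183 from -2.12 to -0.98. The cause of these shifts was not tested. Intervals from depth are not given, since the tables hold no counts, and levels under about 0.4 FPKM on 1 kb rest on single reads.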
